A study of Mus musculus with 2 samples.

Results

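The interferon regulatory factor genes Irf1, Irf2, Irf3, Irf4, Irf5, Irf7, Irf8 and Irf9 were examined for H3K36me2, histone H3 carrying a dimethyl group on lysine 36, in regulatory T (Treg) cells. The 8 genes were taken by name, and each was given a window made of its RefSeq gene body and 20 kb on either side. They are 8 of 21627 coding genes with such windows. Their windows overlapped 60 of the 54527 regions listed for the wild-type library and 50 of the 39745 regions listed for the knockout library.

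The study mapped H3K36me2 in Treg cells from the spleen of C57BL/6 mice. The first group, wild type (WT), was 1 library from mice with no stated allele or treatment. The second group, knockout (KO), was 1 library from mice in which Nsd2, which encodes a histone methyltransferase that makes H3K36me2, was deleted conditionally in Treg cells. The promoter that drives the deletion, the age of the mice, any pooling of mice, the sorting gate and the antibody are named in none of the sources used here. With 1 library per genotype there is no replicate check, so genotypes are compared without p-values, and every interval below covers counting error only.

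Interferon regulatory factors are transcription factors that bind repeated GAAA elements through a conserved amino-terminal domain. Irf1 and Irf2 bind the same elements, Irf1 mainly as an activator and Irf2 mainly as a repressor. Irf3, Irf5 and Irf7 are phosphorylated after nucleic acids or microbial ligands are sensed, and they switch on interferon and inflammatory genes. Irf9 is the DNA-binding subunit of a complex that forms downstream of the interferon receptors. Irf4 and Irf8 are largely restricted to blood cells and bind together with Ets or AP-1 factors, and Irf4 is known for its part in effector Treg cells.

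The main start of a gene is its most upstream start in the RefSeq promoter table for GRCm38.p6 (mm10). The main starts of Irf1, Irf4 and Irf9 lay inside a region of both lists. The 250 bases before those starts are shown first, from the same table. Irf1, Irf8 and Irf9 have a second listed start, described below. Capitals mark a match to the GAS element TTCNNNGAA, which Stat dimers bind, or to the TATA box TATAAA. The IRF element, GAAA followed by any 2 bases and a second GAAA, was searched as well, all on both strands, and no match overlapped another.
Irf1, chr11:53769764-53770013, plus strand: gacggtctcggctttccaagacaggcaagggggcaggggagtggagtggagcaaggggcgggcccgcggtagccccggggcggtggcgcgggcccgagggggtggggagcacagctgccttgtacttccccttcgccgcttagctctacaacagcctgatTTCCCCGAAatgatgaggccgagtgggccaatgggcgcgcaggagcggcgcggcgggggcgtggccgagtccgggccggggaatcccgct
Irf4, chr13:30748983-30749232, plus strand: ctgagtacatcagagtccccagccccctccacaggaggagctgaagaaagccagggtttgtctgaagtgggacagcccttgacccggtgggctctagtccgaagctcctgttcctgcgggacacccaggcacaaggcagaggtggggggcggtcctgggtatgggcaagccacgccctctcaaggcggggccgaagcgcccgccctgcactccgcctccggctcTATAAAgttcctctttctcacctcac
Irf9, chr14:55603735-55603984, plus strand: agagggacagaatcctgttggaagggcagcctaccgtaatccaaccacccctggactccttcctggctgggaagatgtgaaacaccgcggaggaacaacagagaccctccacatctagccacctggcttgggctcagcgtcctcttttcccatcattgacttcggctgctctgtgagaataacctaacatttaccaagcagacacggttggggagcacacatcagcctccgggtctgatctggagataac

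The Irf1 sequence holds a GAS match, TTCCCCGAA, 90 to 82 bases before the start. The Irf4 sequence holds TATAAA 26 to 21 bases before the start, and the Irf9 sequence holds no match to any of the 3 motifs. Over 32851 RefSeq promoters, 7.02% held the GAS element in these 250 bases, 12.4% held TATAAA and 2.98% held the IRF element. The 3 stretches also differ in composition. G and C made up 71.2% of the Irf1 bases, 63.6% for Irf4 and 54.4% for Irf9, against a median of 52.4% over all promoters, and CpG pairs numbered 25, 11 and 7 against a median of 6.

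The promoter of Irf2 is shown for contrast, because it was the only member promoter with a match to the IRF element while its start lay outside the regions of both lists. Its IRF element match, GAAAATGAAA, lies 241 to 232 bases before the start, and a GAS match, TTCCGAGAA, lies 224 to 216 bases before it. These letters are matches by sequence, not measured binding sites.
Irf2, chr8:46739495-46739744, plus strand: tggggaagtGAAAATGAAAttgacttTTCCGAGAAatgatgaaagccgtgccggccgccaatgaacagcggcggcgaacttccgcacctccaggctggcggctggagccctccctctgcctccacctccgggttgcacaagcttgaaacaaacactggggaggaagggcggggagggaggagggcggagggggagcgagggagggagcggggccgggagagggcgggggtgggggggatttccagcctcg

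Each library's list comes from a peak caller run on that library alone, and the libraries differed in depth, with 17158154 tags in WT and 14789700 in KO. A 500 bp peak needed 13 tags in WT and 12 in KO, which is 7.58 and 8.11 tags after scaling to 10000000 tags, so the caller asked for more signal in KO. The deposited tag value of a listed 500 bp region can lie below these figures, down to 6.70 in WT and 7.10 in KO among the member regions, while all their scores reach the threshold. Regions held 7.17% of the WT tags and 5.89% of the KO tags. A stretch without a region is one that the caller did not list, not one without the mark. Over the windows of all coding genes together, the KO list covered 76.0% of the base pairs that the WT list covered, and the members are read against that figure. Fewer cells carrying the mark and less mark per cell cannot be told apart in bulk libraries.

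The label of the cells was checked by cover of marker gene bodies. Regions covered 14.8% (WT) and 17.0% (KO) of the bodies of 7 Treg and CD4 T cell markers together, against 2.53% and 1.89% for all coding bodies, with regions in 6 of the 7 in each list. Ctla4 was the marker with no region in either, while Foxp3, the defining factor of Treg cells, was covered over 17.6% and 29.9% of its body. B cells, myeloid cells and dendritic cells also use Irf4, Irf5 and Irf8, so their markers are given beside them. The 5 B cell markers were covered over 2.64% and 2.01%, the highest being Cd79b at 39.8% and 48.8%, with no region in the body of Ms4a1 in either list. The 6 myeloid markers had 1.60% and 0.996%, with at most 4.40% and 3.91% in any of them and none in Lyz2, Cd14 or Adgre1. The 6 dendritic cell markers had 1.99% and 1.20%, at most 5.96% and 5.20%, and Siglech and Xcr1 had none. The 5 CD8 T and NK cell markers had 4.87% in WT and none in KO, and the 3 erythroid markers 3.55% in WT, all of it in Klf1, and none in KO. Over the windows of the CD8 T and NK cell markers, cover was present in both lists, 3.20% in WT and 2.03% in KO. Over the windows of the erythroid markers the order was the other way, 2.40% and 2.81%. The part of other cell types in the members' values was not tested.

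All 8 windows were covered more than most coding windows. The median coding window was covered over 1.20% of its length in WT and 0.876% in KO, and each member exceeded both medians in both lists. In WT the members lay between percentile 80.7 of coding windows, for Irf2, and percentile 99.3, for Irf1. In KO the lowest was Irf5 at percentile 64.2 and the highest again Irf1 at percentile 99.0. Every member had a region in its gene body in WT, and 7 of 8 had one in KO, all but Irf3. Of all coding genes, 44.4% had such a region in WT and 40.6% in KO.

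**Figure D1:**
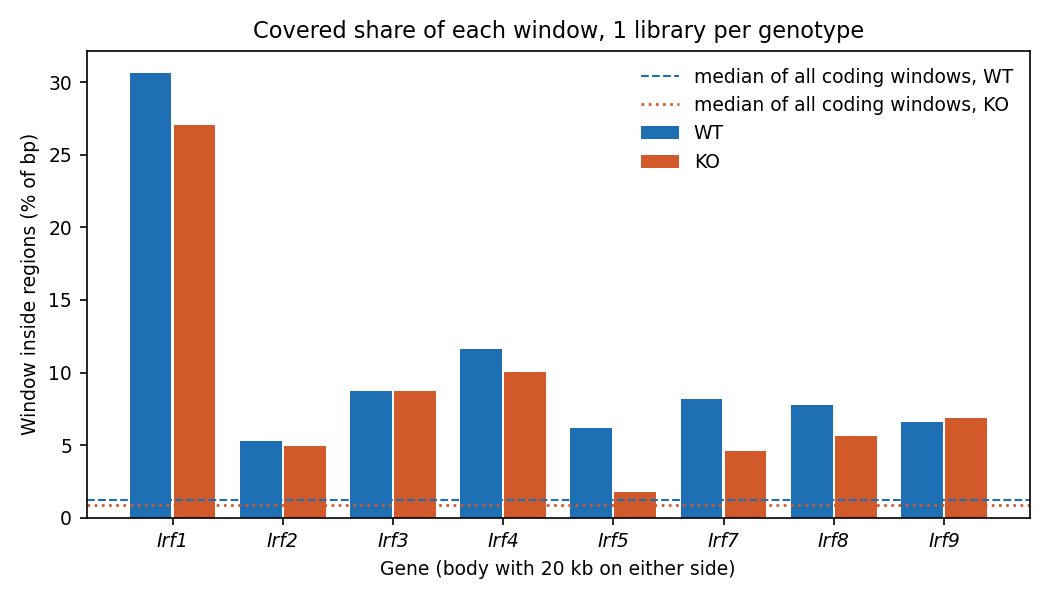
Covered share of each window (gene body with 20 kb on either side, in percent of base pairs) for the 8 Irf genes, with 1 WT and 1 KO library. Irf1 stands highest at 30.6% and 27.0%, Irf3 and Irf9 lie almost level between the lists, and Irf5 shows the widest relative gap, 6.21% against 1.77%.

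In the members together, regions covered 48022 bp in WT and 39694 bp in KO, or 9.52% and 7.87% of the 504465 bp of the windows. KO thus had 82.7% of the WT cover, against 76.0% over all coding windows. The number of regions in KO was 83.3% of that in WT (Clopper-Pearson 95% interval for counting error, 56.1% to 123%), an interval that includes both equal numbers and the 74.8% of all coding windows. Irf1 alone supplied 14809 of the WT and 13068 of the KO base pairs, and without it the KO cover was 80.2% of WT. The regions themselves were alike in size, with a mean length of 821 bp in WT and 811 bp in KO and 16.1 and 16.9 normalised tags per kb.

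A window was called lower or higher in KO when its cover differed at least 1.5-fold and reached 1000 bp in the larger list. Irf5 and Irf7 were called lower, 2 of the 8 members, where 42.6% of 12109 coding windows were called lower. No member was called higher, where 18.5% of coding windows were. The median ratio of KO to WT cover was 0.873 over the members and 0.773 over the coding windows, and 6 of 8 members had less cover in KO, 75%, against 63.7% of coding windows. At 2-fold, only Irf5 was called lower, where 31.3% of coding windows were.

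**Figure D2:**
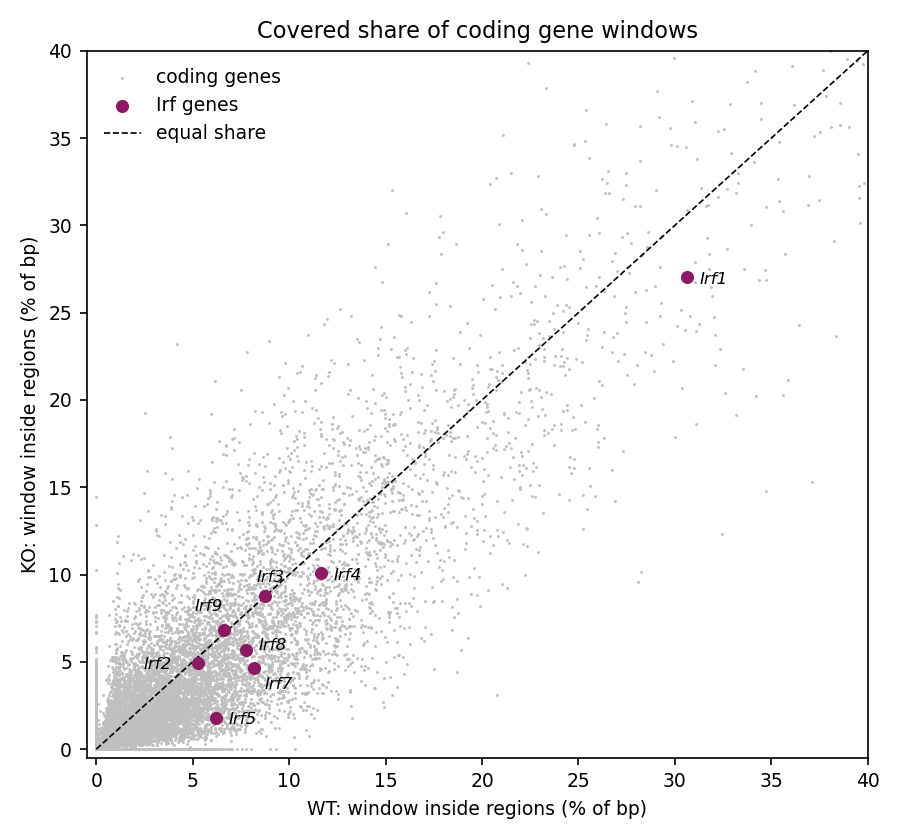
Covered share of coding gene windows in WT (x axis) against KO (y axis), in percent of base pairs, with the 8 Irf genes marked among all coding windows; 72 windows lie beyond the 40% end of the axes. Irf1 sits far to the upper right at 30.6% and 27.0%, and the other 7 lie between 5.27% and 11.7% in WT.

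Irf1, which activates interferon-responsive and antigen-presentation genes, lies at chr11:53770014-53778374 on the plus strand and carried the most regions of the family. WT listed 13 regions and KO 14 in its window, covering 14809 bp and 13068 bp, a KO to WT ratio of 0.88. Most of this cover lay outside the gene body. The upstream flank held 6699 bp in WT and 6466 bp in KO, the body 963 bp and 1726 bp, and the downstream flank 7147 bp and 4876 bp. The upstream flank was thus nearly level between the lists, and the downstream flank had the larger gap. No other coding gene lies in the window. The long noncoding gene Gm12216 overlaps its downstream side and took 3971 bp of the WT and 2067 bp of the KO cover.

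The broadest region of any member lay upstream of Irf1. It ran from 9.14 kb to 5.53 kb before the start in WT, 3607 bp with 60.9 normalised tags, and from 8.20 kb to 5.69 kb in KO, 2511 bp with 50.7 tags. The KO region lay wholly within the WT region and was denser, with 20.2 tags per kb against 16.9. Both regions enclose the microRNA gene Mir7671, whose mature forms are printed from RefSeq with the seed (bases 2 to 8) in capitals to show what the mark spans there.
mmu-miR-7671-5p: aGGCUCCGcucuggcuagcuucc
mmu-miR-7671-3p: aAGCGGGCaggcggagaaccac

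A second long region covered the start of Irf1 and the promoter printed above. It measured 1930 bp in WT, from 1661 bp before to 269 bp after the start, and 1645 bp in KO, from 1339 bp before to 306 bp after. The tags were nearly equal, 40.8 in WT and 41.6 in KO, and per kb they were 21.1 and 25.3, the latter the densest KO region at any site shared by the lists in the family. Of the Irf1 regions, 8 in each list overlapped one of the other list, and 7528 bp were covered in both, 37.0% of all base pairs covered in either. Within the body the lists differed. WT had a 693 bp region beginning 864 bp after the start, and KO had instead a 703 bp region at 4.32 kb and a 1444 bp region across the gene end.

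**Figure D3:**
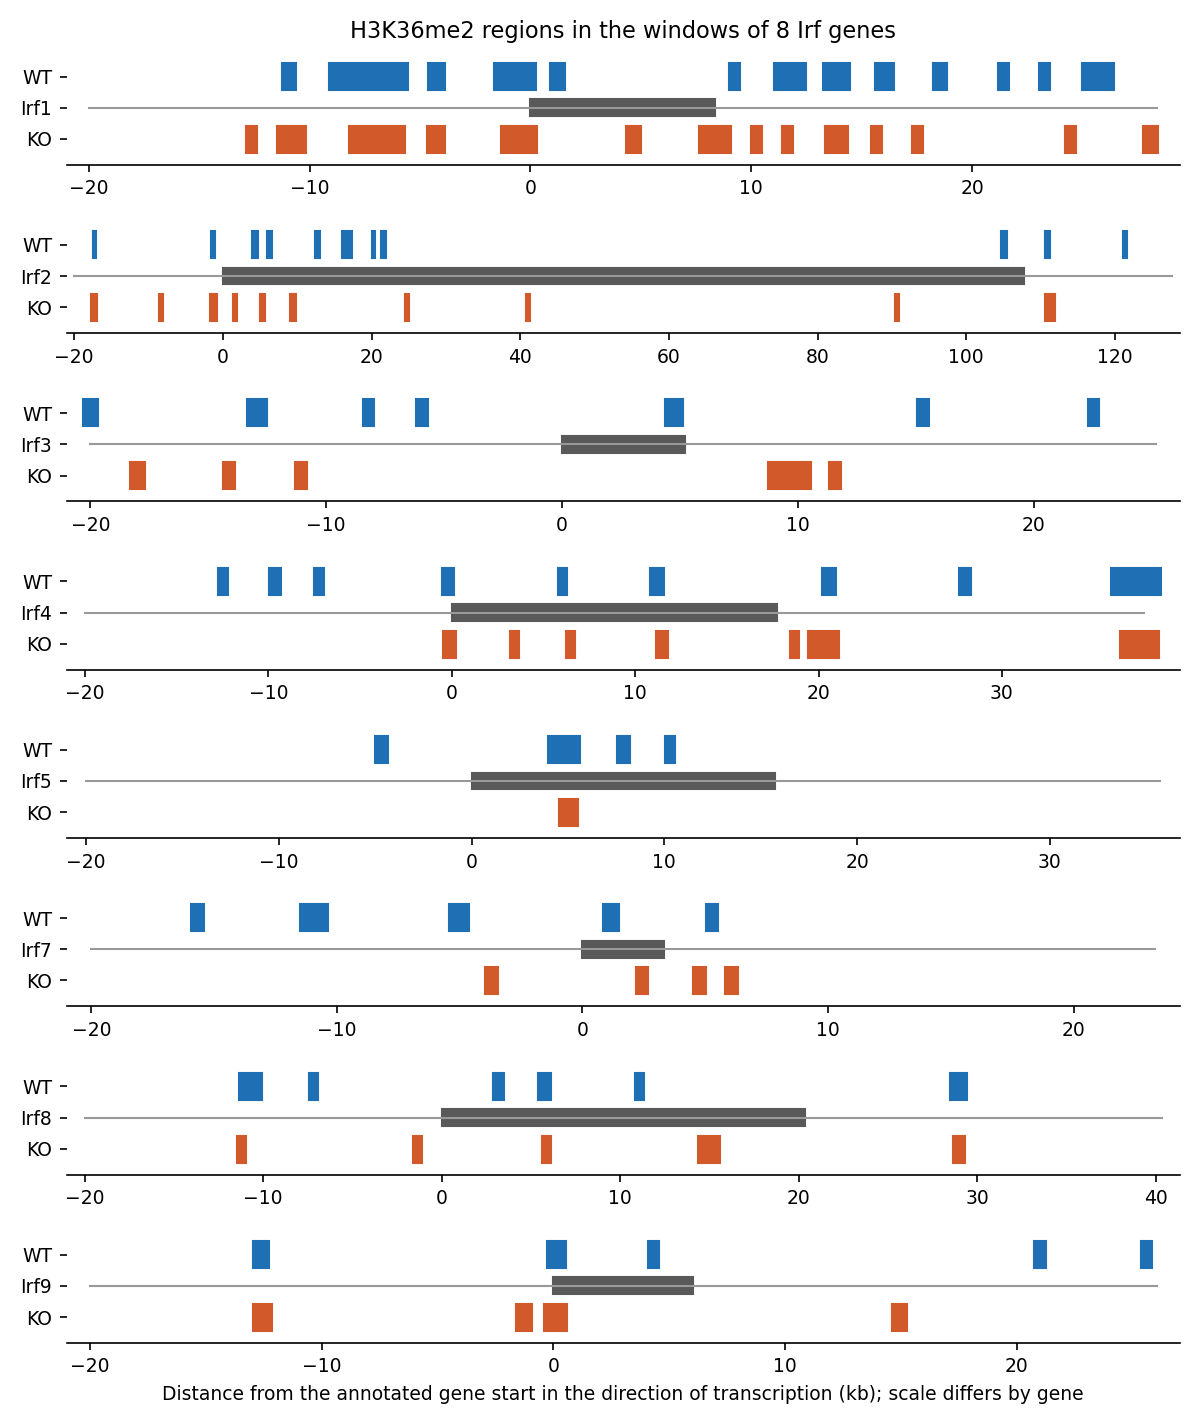
Regions of the WT and KO lists in the windows of the 8 Irf genes, drawn by distance from the gene start in the direction of transcription (kb), with a scale of its own for each gene. Irf1 carries the densest row, with 13 WT and 14 KO regions. In Irf3 and Irf7 no region of one list overlaps a region of the other.

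Irf2, the repressor counterpart of Irf1, has by far the longest gene body of the family, at chr8:46739745-46847458 on the plus strand. Its window held 11 regions and 7783 bp in WT and 10 regions and 7309 bp in KO, a ratio of 0.94. The near-equal totals combine opposite sides. The body held 5627 bp in WT and 3672 bp in KO, and the upstream flank held 1000 bp in WT and 2210 bp in KO. In WT, 6 of the 7 body regions ended within 21975 bp of the start, and the remaining region lay near its end. In KO the 6 body regions were spread out to 91.0 kb. None of the body regions of one list overlapped one of the other, and the 3 shared sites all lay in the flanks. Only 12.3% of the base pairs covered in either list were covered in both. No other coding gene lies in this window, and the nearest region to the start lay 1070 bp away in WT and 817 bp away in KO, both upstream.

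Among the factors that act after sensing of nucleic acids, Irf3 lies among 4 other coding genes, at chr7:44997648-45002848 on the plus strand. Regions numbered 7 in WT and 5 in KO and covered 3949 bp and 3953 bp. Near-equal totals again hid different positions, since no base was covered in both lists. WT had 1 region in the Irf3 body, 731 bp near the gene end with 11.4 normalised tags, and KO had none. The longest KO region, 1820 bp with 26.7 tags, lay 8.74 to 10.6 kb after the start in Scaf1. The bodies of the neighbours Prmt1, Bcl2l12, Scaf1 and Rras held 2718 bp of the WT and 3540 bp of the KO cover. With the bodies of neighbours left out, Irf3 had 1231 bp in WT and 413 bp in KO.

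Irf5, a mediator of inflammatory cytokine induction after Toll-like receptor signals, had the lowest KO cover of the family, at chr6:29526130-29541869 on the plus strand. WT listed 4 regions covering 3464 bp and KO listed 1 region covering 989 bp, so WT cover was 3.50-fold the KO cover. In WT, 3 of the 4 regions lay in the gene body, and the longest, 1675 bp from 3.96 to 5.64 kb after the start, held 23.9 normalised tags. The only KO region lay inside that stretch, from 4.53 to 5.52 kb, with 17.6 tags. At this shared site the KO tags were 0.736 of the WT tags (interval for counting error, 0.432 to 1.23), an interval that includes equal tags. These tags lay over 1675 bp in WT and 989 bp in KO, so the ratio does not compare the same bases. Per kb of listed region they were 14.3 in WT and 17.8 in KO. The other WT regions held 11.4, 9.91 and 6.70 normalised tags, and 2 of these 3 are longer than a single peak. None had a counterpart in KO. The first of them lies upstream, inside the long noncoding gene Gm26627, and the coding neighbours Kcp and Tnpo3 held no covered base of the window in either list. As counts of regions, 1 against 4 gives a ratio with an interval from 0.00508 to 2.53. The call of lower cover held in all 10 alternative settings that gave Irf5 a value, with ratios between 0 and 0.539.

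Irf7, the main amplifier of type I interferon production, lies at chr7:141263183-141266499 on the minus strand. WT listed 5 regions covering 3552 bp and KO 4 regions covering 2000 bp, and WT cover was 1.78-fold the KO cover. All 4 KO regions were single 500 bp peaks of 7.44 to 8.79 normalised tags, close to the threshold of the caller. The WT regions included 1 of 1118 bp with 16.0 tags, 10.4 to 11.5 kb upstream. No base was covered in both lists. Most of the difference lay upstream, with 2422 bp in WT and 500 bp in KO. The call depended on the window and on the threshold. With flanks of 10 kb, cover was 1934 bp in WT and 2000 bp in KO, and with a common tag threshold the KO to WT ratio was 0.784. The neighbours Phrf1 and Cdhr5 took 1304 bp of the WT and 1500 bp of the KO cover. With the bodies of neighbours left out, Irf7 had 2248 bp in WT and 500 bp in KO, a ratio of 0.222.

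The absence of any common base in Irf3 and Irf7 was set against other coding windows. This comparison was not planned. It was made for members already seen to share no base, so it is a description and no test. Among coding windows with at least 2000 bp in each list, 4.42% of 5027 had no base in common, and Irf3 and Irf7 were 2 of the 7 members in that class. The class has no upper limit of cover, and Irf7, with 2000 bp in KO, lay at its floor. The share is therefore not matched to Irf7, for which no narrower class was taken. Irf5, with 989 bp in KO, all of it also covered in WT, fell below the floor and was left out. Among coding windows with 3 to 5 kb in both lists, as Irf3 had, the share was 4.44% of 698. The other 5 members in the class shared between 12.3% and 37.0% of the bases covered in either list. The median over the 7 members was 24.0%, against 18.9% for the coding windows.

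Irf9, the DNA-binding subunit of the complex that answers type I interferon, lies at chr14:55603985-55610030 on the plus strand. WT listed 5 regions covering 3050 bp and KO 4 regions covering 3152 bp, a ratio of 1.03. The start of the gene carried a region in each list, 861 bp with 12.5 normalised tags in WT and 980 bp with 14.5 in KO. In both lists 21.5 tags before scaling lay in that region, so the normalised values differed only through the scaling. The body held 1075 bp in WT and 598 bp in KO, since a 500 bp WT region 4.07 kb after the start had no KO counterpart. The neighbours Psme2, Rnf31, Rec8 and Ipo4 took 1078 bp of the WT and 1633 bp of the KO cover. With their bodies left out, the ratio for Irf9 was 0.770. It was 1.71 with flanks of 10 kb, 1.69 with flanks of 50 kb and 1.54 with a common tag threshold, which made Irf9 a higher call in those settings. The direction for Irf9 thus depended on the window and the threshold.

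Irf4, which is induced by T cell receptor signals, lies at chr13:30749233-30766981 on the plus strand with no other coding gene in its window. WT listed 9 regions covering 6728 bp and KO 7 regions covering 5810 bp, a ratio of 0.86. The start region was almost the same in both, 658 bp with 8.45 normalised tags in WT and 668 bp with 10.1 in KO. Upstream of it the lists parted. WT had 3 further regions between 12.7 and 6.99 kb before the start, KO had none there, and the upstream flank held 2157 bp in WT and 462 bp in KO. The body went the other way, with 1416 bp in WT and 1856 bp in KO.

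The strongest region near Irf4 lay downstream, beginning 35.9 kb after the start in WT and 36.4 kb after it in KO, and it ran past the edge of the window. It measured 2753 bp with 51.0 normalised tags in WT and 2127 bp with 44.3 in KO. The KO tags were 0.870 of the WT tags (interval for counting error, 0.623 to 1.21). Like the broad region upstream of Irf1, the KO region lay within the WT region and was denser per kb, 20.8 against 18.5. These 2 sites in WT and the same 2 in KO were the regions of at least 2 kb in the whole family.

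Irf8, a lineage factor of B cells, monocytes and dendritic cells, lies at chr8:120736358-120756694 on the plus strand, also without another coding gene in its window. WT listed 6 regions covering 4687 bp and KO 5 regions covering 3413 bp, a ratio of 0.728, below the 1.5-fold call. All sites shared by the lists were shorter in KO. Upstream, 1323 bp in WT stood against 500 bp in KO, in the body 775 bp against 500 bp, and downstream 959 bp against 656 bp. At the upstream site the tags were 23.0 in WT and 8.79 in KO, a ratio of 0.377 (interval for counting error, 0.185 to 0.720). Per kb of listed region they were nearly equal, 17.4 in WT and 17.6 in KO, so this ratio went with the unlike lengths. The longest KO region, 1257 bp with 20.6 tags in the gene body 14.3 to 15.6 kb after the start, had no WT counterpart. The main start was outside both lists, with the nearest region 2882 bp away in WT and 1110 bp away in KO. From the second listed start of Irf8, the nearest region was 601 bp away in WT and 3341 bp away in KO. By the pooled shares given above, the B cell, myeloid and dendritic marker bodies had less cover in KO, as all coding bodies did (2.53% and 1.89%). Within the B cell list Cd79a, with 14.7% and 22.9%, and Cd79b had more in KO, and Pax5, with 2.05% and 0.957%, had less.

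At the main starts, 3 of the 8 members, Irf1, Irf4 and Irf9, had a region of each list within 500 bp. Of 17273 coding genes with a listed start, 6.5% did. The same 3 genes made up the count in WT alone, where 12.7% of coding genes had one, and in KO alone, where 12.8% did. In the 5 remaining genes the nearest region lay between 766 bp (Irf7) and 4385 bp (Irf3) from the main start in WT and between 817 bp (Irf2) and 8744 bp (Irf3) in KO. Covered and uncovered main starts were thus the same genes in both genotypes. The second listed start of Irf1 lay outside the regions of both lists, 190 bp from the nearest in WT and 153 bp in KO. The second listed start of Irf9 lay inside a KO region and 20 bp from the nearest WT region.

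**Figure D4:**
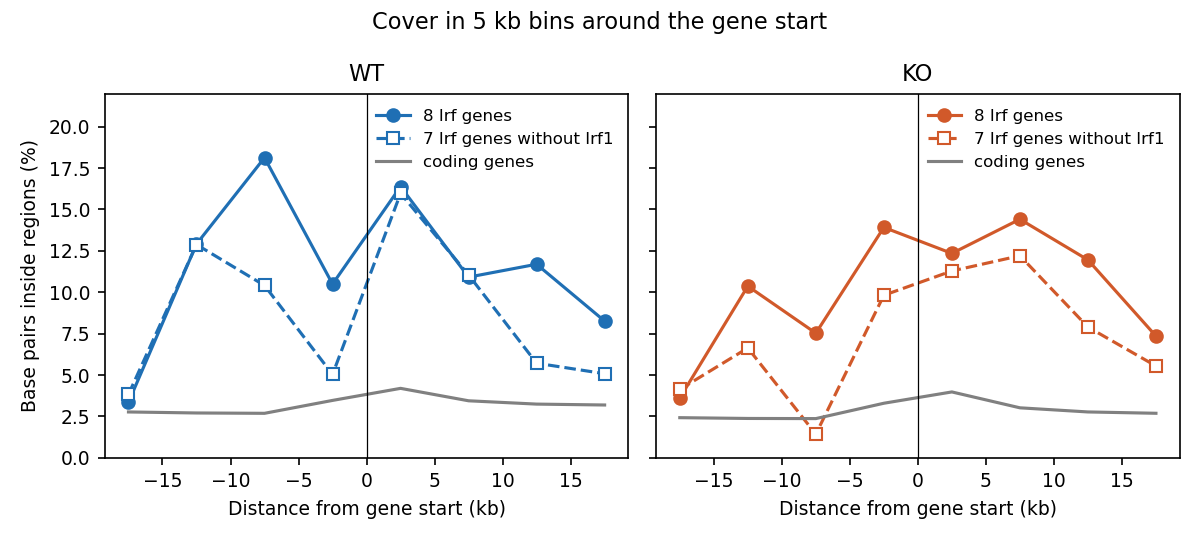
Base pairs inside regions, in percent, in 5 kb bins from 20 kb before to 20 kb after the gene start, for the members and for all coding genes, in WT and KO. Members lie between 3.35% and 18.1% in WT and between 3.61% and 14.4% in KO, and coding genes between 2.69% and 4.20% and between 2.37% and 3.98%.

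In bins of 5 kb around the start, the members exceeded the mean of coding genes in every bin of both lists. The widest gap between the lists lay 10 to 5 kb upstream, with 18.1% of base pairs covered in WT and 7.53% in KO. Without Irf1 that bin had 10.4% and 1.43%, and coding genes had 2.69% and 2.37%. In the 5 kb just before the start the order was the other way, 10.5% in WT and 13.9% in KO. Each bin pools 8 genes of 1 library, so a single region can move it.

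Of the WT regions in the member windows, 22 of 60 overlapped a KO region by at least 1 bp, 36.7% (Clopper-Pearson 95% interval, 24.6% to 50.1%), against 30.6% over all coding windows. Of the KO regions, 22 of 50 overlapped a WT region, 44.0% (30.0% to 58.7%), against 41.0%. Both intervals include the share of coding windows. Longer regions were shared more often than single peaks. An overlap of 1 bp is easier to reach for a longer region, so the measure itself favours this order. In WT, 18 of 38 regions longer than 500 bp and 4 of 22 single peaks had a counterpart, and in KO 17 of 27 and 5 of 23 did. The same order held over all coding windows, with 45.4% and 16.8% in WT.

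The 22 shared sites fell in 6 genes, 8 in Irf1, 5 in Irf4, 3 each in Irf2 and Irf8, 2 in Irf9 and 1 in Irf5. Normalised tags were higher in KO at 11 of them and lower at 11, with a median ratio of 0.985 and a range from 0.377 to 2.32. The interval for counting error left out 1 at 6 of the 22 sites, among them the Irf4 site 19.4 to 21.1 kb after the start, with 12.5 tags over 727 bp in WT and 25.4 over 1669 bp in KO, a ratio of 2.004 (1.16 to 3.56). Per kb, KO was denser at 15 sites and WT at 7, with medians of 16.5 and 15.7 tags per kb. Over all coding windows KO regions were also the denser, 17.2 against 15.9 tags per kb. The ends of a region are set by the caller in each library, so the ratio of tags moves with length. The 3 Irf2 sites were all longer in KO, and the 3 Irf8 sites were all shorter.

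**Figure D5:**
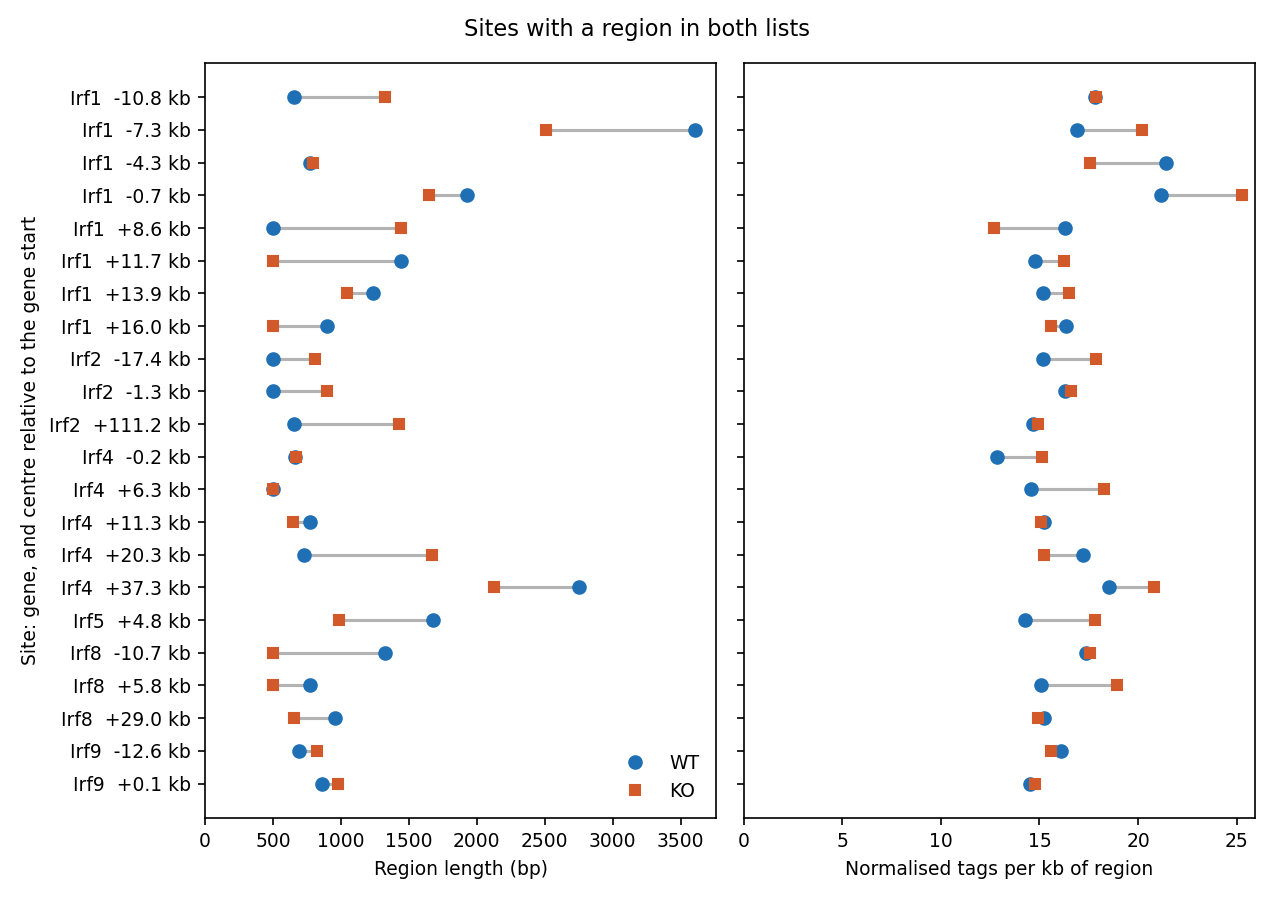
Sites with a region in both lists, by gene and by the centre of the site relative to the gene start, with region length (bp, left) and normalised tags per kb (right) in WT and KO. The Irf1 site centred 7.33 kb upstream and the distal Irf4 site are the longest in both lists, and KO points lie to the right of WT at 15 of 22 sites on the density scale.

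Genes whose body cover was most like that of the members with the highest WT body shares were found among coding genes of similar length, by distance in percentage points over the 2 libraries. Irf7 had 18.99% of its body covered in WT and 15.1% in KO, and the nearest genes were Slc39a2, with 17.9% and 13.6%, and Pdia2, with 20.9% and 15.9%. Irf5 had 17.8% and 6.28%, close to Fasn, with 18.2% and 5.97%, and to Zfp219, with 18.2% and 6.64%. Irf9 had 17.8% and 9.89%, close to Spc24, with 18.0% and 9.97%, and to Ptma, with 17.3% and 10.03%. With 1 value per genotype, many genes share such a pattern, and the 2 names for each are only the nearest of 2254 to 4628 candidates.

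The pathway around the factors was described by lists of genes, each by cover of its gene bodies. All 9 genes for interferon receptors and their signalling had a region in both lists, and together 9.45% of their bodies was covered in WT and 8.31% in KO. None of the 9 windows was called lower and 1, Stat2, was called higher, going from 1000 bp to 2000 bp. Tyk2, a kinase of the type I receptor, had 25.9% and 8.20% of its body covered. Ifngr2, a chain of the interferon gamma receptor, had 5.90% and 14.5%. Among the 14 sensing genes upstream of Irf3, Irf5 and Irf7, 9 had a body region in WT and 8 in KO, with 3.82% and 2.25% covered. Of their 11 windows with enough cover, 7 were called lower and 2 higher. Ticam1, the adaptor of Tlr3, had no region in its body in WT and 24.5% covered in KO, and Tlr9, an endosomal DNA sensor, had 23.4% in WT and none in KO. For Tlr9 that is 1000 bp of a 4279 bp body, and its window, with 6534 bp and 5203 bp, was called neither way. The Ticam1 window, with 2807 bp and 9086 bp, was called higher.

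Of the 16 interferon-stimulated genes, 14 had a window. Their bodies were covered over 3.10% in WT and 3.83% in KO, with 3 of 12 windows called lower and 2 higher. Bst2, which tethers budding virus, had 60.2% and 39.5% of its body covered, and Rsad2, the antiviral viperin gene, had 3.65% and 10.2%. The Bst2 window went the other way from its body, with 3743 bp in WT and 5170 bp in KO. The Rsad2 window, with 500 bp and 2017 bp, went the same way as its body. The 13 DNA-binding partners and corepressors were the most covered of the pathway lists, with 16.0% in WT and 13.7% in KO. Of the 13, 12 had a body region in both WT and KO, and 3 windows were called lower and 2 higher. The Irf2 corepressor gene Irf2bp2 had 35.7% and 0.843%, while Junb, an AP-1 partner of Irf4, had 14.2% and 41.9%. The Junb shares are 261 bp and 771 bp of a body of 1840 bp. Its window, with 15569 bp in WT and 17532 bp in KO, was called neither way, and the Irf2bp2 window, with 12221 bp and 7308 bp, was called lower. The 11 genes tied to Irf4 in effector Treg cells had 5.83% and 5.91%, with 1 of 9 windows called lower and 3 higher. In that list Pdcd1, the gene of the inhibitory receptor PD-1, had 46.0% and 34.3%, and Ebi3, a subunit of interleukin 35, had none in WT and 11.4% in KO. For Ebi3 that is 500 bp of a 4400 bp body, and its window, with 0 bp and 2215 bp, was called higher. The background for these calls is the same as for the members, 42.6% lower and 18.5% higher.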

How the data were processed

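H3K36me2 regions of 1 WT and 1 KO library were used as deposited. Per the submitters' processing notes, Trim Galore, Bowtie2, Picard, HOMER and deepTools were used on mm10, without versions given. Per the file headers, the authors ran HOMER findPeaks in histone style without a control library, with 500 bp peaks at least 1000 bp apart, a fragment length of 180 bp, and Poisson thresholds of 0.001 against the genome and 0.0001 against the surrounding 10000 bp. The deposited signal is the normalised tag count per region, scaled by the authors to 10000000 tags. The score deposited by the authors was used in 1 alternative, and their deposited fold ratio (clonal fold change) was not used. Equal scaling removes any genome-wide change in total tags from the normalised tag counts. Covered length and region number are not scaled, and they depend on depth through the tag threshold. Tags are PCR reads without molecular identifiers.

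Covered base pairs per window were computed in Python 3.11.15 with numpy 2.4.6, pandas 2.3.3, scipy 1.17.1 and matplotlib 3.10.9. The script was tested on a copy of the WT list from which all regions of randomly picked windows were removed. That test checks the computation for complete loss only, not for partial changes. Gene bodies come from a RefSeq table of GRCm38.p6, and strand and start from its promoter table. Exons were not used, so no region is placed in an exon or intron, and no protein is printed. Region coordinates are as in the files. A window was called at 1.5-fold with at least 1000 bp in the larger list. Members and gene lists were chosen with earlier results of these data known. Named genes are the 8 members, their neighbours, the 2 genes of each pathway list with the largest difference in body cover, and the 2 genes nearest to each of the 3 members with the highest WT body share. Stat2 and single marker genes were named after their values were seen. The comparison of windows without a common base was also made after the values of Irf3 and Irf7 were seen. In all, 13 alternative settings were tried.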

Additional observations from a re-analysis of the deposited data

How the results depend on the processing

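No paired analysis was possible because each genotype has 1 library. KO cover of all member windows was 82.7% of WT and lay between 51.1% and 111% over the alternatives. The value of 51.1% came from keeping the upper 50% of scores in each list, and its cause was not tested. The value of 111% came from dividing KO by the ratio of covered length over chromosomes 1 to 19 and X, 74.3%. At 1.5-fold, 2 member windows were called lower in KO and 0 higher, where 42.6% and 18.5% of coding windows were. The lower count was 7, all but Irf4, with the upper 50% of scores (48.4% of coding windows). It was 3 with gene bodies alone (Irf2, Irf5 and Irf9, 47.5%) and 3 with flanks of 50 kb (Irf4, Irf5 and Irf7, 40.6%). It was 1, Irf5, with flanks of 10 kb (43.1%), with a common tag threshold of 13.9 tags for WT regions of 500 bp (28.8%), with KO divided by the covered-length ratio (28.8%), with regions closer than 1 kb merged (43.6%), and at 2-fold (31.3%). The higher count was 1 with gene bodies alone (Irf1, 20.1% of coding windows). It was 1, Irf9, with flanks of 10 kb (20.8%), with flanks of 50 kb (14.1%) and with the common tag threshold (32.1%), and 2 with regions of at least 1 kb (Irf3 and Irf4, 29.1%). In these settings the KO to WT ratio was 0.653 for Irf2 and 0.556 for Irf9 in gene bodies, and 0.658 for Irf4 with flanks of 50 kb. Irf7 reversed with flanks of 10 kb, to a KO to WT ratio of 1.03. Irf8 stayed below 1 in all 10 alternatives that gave it a value, between 0.640 and 0.980. Leaving out neighbouring gene bodies or Irf1 were choices made after seeing the data, and gave 76.9% and 80.2%. Requiring at least 50% of a region to be covered lowered the shared regions to 28.3% of WT and 34.0% of KO. Depth limits these lists through the tag threshold, and single 500 bp peaks, 22 in WT and 23 in KO, lie closest to it.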
